A study of Mus musculus with 3 samples.

Results

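The lymphotoxin and TNF receptor pathway of lymph node stromal cells was followed through 10 genes, out of 51912 genes counted in every barcode. They are the receptor genes Ltbr, Tnfrsf1a and Tnfrsf1b, the noncanonical NF-kB genes Map3k14, Relb and Nfkb2, the canonical subunit genes Nfkb1 and Rela, and the ubiquitin ligase genes Birc2 and Birc3. Members were taken by symbol, and each symbol matched 1 gene. The cells came from C57BL/6 mice with the genotype CXCL13-TdTomato+, a transgene with Cre and the red protein TdTomato under Cxcl13, and all mice had received antigen bound in immune complexes (IC). Live Podoplanin+ CD31- CD45- TdTomato+ cells were sorted and profiled with the 10x Genomics 3' kit, which gives each captured RNA molecule 1 molecular tag (a UMI). In the 2-IC group (replicates 1 and 2, here the first and the second 2-IC library) the mice had received a first complex 7 days and a second 24 h before analysis, and in the 1-IC group (1 library) a single complex 24 h before. No group without immune complexes was analysed here, and the cells were taken for their TdTomato. The labels tag the first 2-IC library Biotin24h and the second Biotin7d under otherwise equal titles, and whether both stand for 1 condition is not settled. Several mice were used per experiment, and which of them entered which library is not given.

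Lymphotoxin beta receptor (LTbR, from Ltbr) is carried by stromal cells and binds lymphotoxin made mainly by lymphocytes. It acts in part through the noncanonical arm of NF-kB. There the kinase NIK (from Map3k14) lets p100 (from Nfkb2) be cut to p52, the partner of RELB. The TNF receptors TNFR1 (from Tnfrsf1a) and TNFR2 (from Tnfrsf1b) act largely through the canonical arm, in which dimers such as p50 (cut from the product of Nfkb1) with RELA leave their inhibitors in the cytoplasm. Mice without lymphotoxin or TNFR1 lack follicular dendritic cells (FDCs), the stromal cells that hold antigen in B cell follicles. NF-kB activity itself is set by protein degradation and nuclear entry, which RNA counts do not measure.

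Cells were placed in 5 groups by raw UMIs of marker genes that are not members. Of 5486 barcodes, 2243 passed the filters on genes, mitochondrial RNA and contaminant genes, and 803 of these fell in a gate. The FDC gate (at least 2 UMIs of Cr2, complement receptor 2) held 149 barcodes and the marginal reticular cell gate (MRC, Madcam1) held 44. The interfollicular gate (IFRC, Tnfsf11) held 90, the T-B border gate (TBRC, Fmod) 48 and the medullary gate (MedRC, Inmt) 472. Barcodes were summed per library and gate, which gave 15 sums of 7 to 336 barcodes, and levels are counts per 1000000 UMIs of a sum (CPM), as mean ± SD over 3 libraries. Markers that did not build the gates were read as a check. In the FDC gate, Fcgr2b, an Fc receptor of FDCs, was at 278 ± 34.3 CPM, against at most 15.2 ± 17.5 in the other gates. Ccl21a had its highest mean in the TBRC gate and Cxcl12 in the MedRC gate. Ch25h, listed for IFRCs, was at 133 ± 27.1 CPM in the MRC gate and 86.4 ± 45.1 CPM in the IFRC gate. The summed FDC list was higher in the MRC than in the FDC gate of the second 2-IC library (30141 and 25073 CPM), and the summed MRC list was higher in the IFRC than in the MRC gate of the 1-IC library (7403 and 5541 CPM). The names MRC and IFRC thus stand for the gate rule.

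The first 2-IC library held 20607903 UMIs in total, the second 12788101 and the 1-IC library 3766526. Retained barcodes were deepest in the second 2-IC library, with a median of 14732 UMIs, against 4700.5 in the first and 5979 in the 1-IC library. Barcode sequences also found in another library numbered 78, 76 and 2 in these libraries, and 16, 15 and 1 after filtering. Without them Relb in the FDC gate was higher by 1.03 on the log2 scale, and the other results they touch are given below. The immediate early genes (10 genes such as Fos, Jun and Egr1, which tissue digestion can induce) took 0.875 to 1.46% of UMIs in the FDC gate and 3.34 to 3.47% in the MedRC gate. Their ranges did not overlap between these gates, and the MRC (0.843 to 1.56%), IFRC (1.66 to 1.98%) and TBRC (2.48 to 2.80%) gates lay between or beside them. Defining markers of other cells were at or near 0, partly because the filter used some of them, with Cd79a, Cd79b and Cd3d at 0 and the summed endothelial list at 0 to 22.6 CPM in every gate. The summed B cell list was at 148 to 1034 CPM, nearly all of it Cd74, and the summed myeloid list was at 41.7 to 282 CPM in the FDC gate, with Lyz2 at 83.7 ± 58.8 CPM and Itgax at 0, and at 19.5 to 154 CPM in the other gates. Lyz2 (2.99 ± 0.46, adjusted p = 4.5e-05), Cd52 (1.93 ± 0.28, adjusted p = 1.5e-05) and Cd74 (0.70 ± 0.17, adjusted p = 0.004) were each called higher in the FDC gate, on the log2 scale of the fit described next, and their part in the results of that gate was not tested.

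Differences were tested with edgeR on the sums, with the library as a block, over 5182 genes, and a gene was called at a Benjamini-Hochberg adjusted p under 0.05. Of the 10 members, 9 passed the filter on low counts and Tnfrsf1b did not. Relb, Nfkb2 and Birc2 differed between the 5 gates, which is 3 of 9, and 27.9% of all genes tested differed as well. The receptor genes, Map3k14, Nfkb1, Rela and Birc3 did not pass.

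Transcripts of LTbR were found in every gate and library, with means of 38.1 to 64.0 CPM. Ltbr was at 49.1, 29.8 and 35.4 CPM in the FDC gate of the first 2-IC, the second 2-IC and the 1-IC library, an order kept below. It was at 62.1, 35.2 and 68.5 CPM in the MRC gate and at 50.04, 99.8 and 42.1 CPM in the IFRC gate. In the TBRC gate it was at 52.0, 62.5 and 58.7 CPM, and in the MedRC gate at 55.0, 50.6 and 36.9 CPM. Means ran from 64.0 ± 31.3 (IFRC) through TBRC, MRC and MedRC to 38.1 ± 9.95 (FDC), and the libraries of neighbours in this order overlapped throughout. The FDC gate was not shown to differ from the other 4 (log2 fold change -0.40, interval of 1.96 SE -0.93 to 0.13, edgeR adjusted p = 0.335), nor was the MedRC gate (-0.01, -0.45 to 0.42, adjusted p = 0.994). With contaminant genes allowed, Ltbr was called lower in the FDC gate (-0.96, edgeR adjusted p = 0.0042). That setting let in barcodes with B cell genes such as Cd79a. B cells also carry CR2, the product of Cr2, so the FDC gate could then hold B cells. Their part in this call was not tested. The counts behind the levels of Ltbr were small, with 3 to 96 UMIs per sum.

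Tnfrsf1a, which encodes TNFR1, was also counted in every sum, on 9 to 300 UMIs. In the FDC gate it was at 127, 122 and 134 CPM and in the MedRC gate at 172, 192 and 167 CPM. All MedRC values lay above all FDC values, but each gate overlapped with the MRC gate (231, 84.6 and 137 CPM) and no contrast passed. The log2 fold change of the MedRC gate was 0.40 (interval 0.04 to 0.76, adjusted p = 0.145). It was called higher there with no filter on low counts (0.57, edgeR adjusted p = 0.038), with thinned counts (0.66, 0.035) and with contaminant genes allowed (0.58, 0.032). In the last setting, when the FDC gate could hold B cells, Tnfrsf1a was called lower in the FDC gate (-0.62, 0.024). The IFRC gate had 119, 195 and 140 CPM and the TBRC gate 146, 117 and 176 CPM.

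Tnfrsf1b, the gene of TNFR2, was close to the limit of detection. In the FDC gate it was at 25.5, 29.8 and 3.93 CPM, the last of these from 1 UMI. Means lay between 19.6 ± 10.9 CPM (MedRC) and 35.6 ± 16.2 CPM (TBRC), and in all 5 gates the 1-IC library had the lowest value, from 1 to 3 UMIs per sum. In all retained cells it was at 28.1, 32.8 and 15.8 CPM. The ratio of the 1-IC library to the first 2-IC library was -0.83 on the log2 scale (exact 95% counting interval -1.41 to -0.29), and to the second 2-IC library it was -1.05 (-1.64 to -0.50). These intervals cover counting error only, and 1 library of the 1-IC group does not allow a test of the condition.

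**Figure D1:**
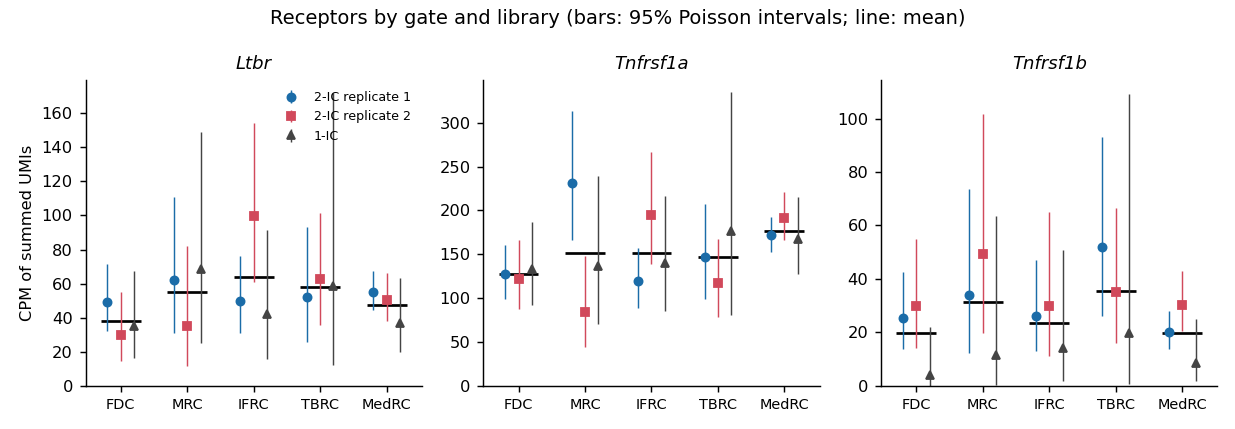
Levels of the receptor genes Ltbr, Tnfrsf1a and Tnfrsf1b (y axis, CPM of summed UMIs) in 5 gates (x axis), with a point for each library, a bar for its 95% Poisson interval and a line for the mean. The libraries of neighbouring gates overlap, and Tnfrsf1b is lowest in the 1-IC library in every gate.

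Barcodes of B cells in the same libraries held little receptor RNA. Those with any UMI of Col3a1, a reticular cell gene, were left out of this set. That rule can remove barcodes that took up free stromal RNA, and the part of free RNA in droplets was not tested. The B cell barcodes (at least 2 UMIs of Cd79a and none of Col3a1, 753 barcodes, median 3141 to 6108 UMIs) had Ltbr at 1.44 ± 2.50 CPM and Tnfrsf1a at 8.64 ± 2.85 CPM. With each barcode thinned to 2000 UMIs, 0.233% of B cell barcodes had a UMI of Ltbr, against 8.12 to 12.6% in the gates (0.730% and 24.3 to 45.5% without thinning). For Tnfrsf1a the thinned shares were 0.888% in B cell barcodes and 17.2 to 35.6% in the gates. The downstream genes were also transcribed in B cells, with Nfkb1 at 95.4 ± 21.4 CPM, Birc3 at 103 ± 53.0 CPM and Relb at 60.7 ± 12.8 CPM.

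Of the noncanonical arm, Relb was highest in the FDC gate. The partner of p52 was at 198, 191 and 145 CPM there, on 109, 64 and 37 UMIs. It was at 119, 91.6 and 103 CPM in the MRC gate, at 112, 145 and 119 CPM in the IFRC gate, at 66.1, 82.0 and 39.2 CPM in the TBRC gate and at 58.4, 86.7 and 68.1 CPM in the MedRC gate. Each FDC value lay above every other value of Relb, the IFRC gate of the second 2-IC library (144.8 CPM) being just below the FDC gate of the 1-IC library (145.4 CPM). Relb in the FDC gate exceeded the mean of the other 4 gates in 3 of 3 libraries, by 1.15, 0.91 and 0.81 on the log2 scale.

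The fitted difference was 1.11 ± 0.16 (log2 fold change ± SE, edgeR adjusted p = 2.13e-05), where 13.7% of all genes were called higher in the FDC gate. Against the MRC gate alone Relb was higher by 0.93 ± 0.25 (adjusted p = 0.0251), where 3.8% of genes were called higher. The first call was kept without any 1 library and in 12 of 12 alternatives that tested the gene. With contaminant genes allowed, the FDC gate held 218, 103 and 70 barcodes and could include B cells, and the difference was 0.55. The second call was lost in 9 of 12 alternatives, and with contaminant genes allowed the difference was 0.11 (edgeR adjusted p = 0.95). It was lost with immediate early genes limited to 2% (0.58, edgeR adjusted p = 0.43). There the MRC sum of the second 2-IC library had 4 barcodes and did not enter the fit. The second call was also lost with no filter on low counts (adjusted p = 0.058) and without any 1 library (adjusted p = 0.26, 0.13 and 0.092 without the first 2-IC library, the second 2-IC library and the 1-IC library). It was lost too with no replicate block (adjusted p = 0.16), with DESeq2 (0.066) and without the barcodes shared by libraries (0.066).

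Nfkb2, the gene of p100, had its highest means in the FDC and MRC gates and its lowest in the MedRC gate. It was at 142, 173 and 126 CPM in the FDC gate and at 152, 176 and 91.4 CPM in the MRC gate. The IFRC gate had 129, 120 and 77.2 CPM, the TBRC gate 80.3, 113 and 97.9 CPM and the MedRC gate 58.4, 98.4 and 65.2 CPM. FDC and MedRC values did not overlap, while FDC and MRC values did. In the FDC gate Nfkb2 was higher than in the others by 0.61 ± 0.17 (adjusted p = 0.0118), a call that was lost in 7 of 12 alternatives, among them without the first 2-IC library (0.11), without the 1-IC library (0.10), with barcodes under 1% Malat1 left out (0.062) and with no replicate block (0.13). It was not shown to differ between the FDC and MRC gates (0.18, interval -0.29 to 0.66, adjusted p = 0.78).

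The start of Nfkb2 on chromosome 19 is printed because it was the only one of the 8 members with a promoter in the RefSeq table used here to hold the 10-base kB motif, the sequence that NF-kB dimers bind. Relb and Nfkb1 had no promoter there and were not searched. Both strands were searched, from 250 bases before each start to 50 after it, and 4.51% of 32851 promoter windows held a match. All 3 annotated starts of Nfkb2 had one, and the windows of the second and the last start share the site at chr19:46305705-46305714. In the lines below (GRCm38.p6, plus strand, 5′ to 3′) the capitals mark bases within a match. The first line gives the 250 bases before the first start, with 2 sites, at -39 to -29 (overlapping matches on both strands) and -11 to -2. The second gives 30 bases around the site that lies at -225 to -216 from the last start.
Nfkb2 first start, chr19:46304487-46304736: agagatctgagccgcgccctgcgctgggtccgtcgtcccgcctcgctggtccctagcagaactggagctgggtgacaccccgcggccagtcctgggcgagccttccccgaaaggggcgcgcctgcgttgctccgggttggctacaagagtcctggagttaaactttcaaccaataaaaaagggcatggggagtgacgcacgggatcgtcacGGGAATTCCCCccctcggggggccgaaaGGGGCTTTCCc
Nfkb2 last start, chr19:46305695-46305724: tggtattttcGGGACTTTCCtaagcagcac
A match is a description of the letters, and binding was not measured. The gene itself spans chr19:46300994-46312400, and Relb chr7:19606217-19629438.

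In the MedRC gate both genes were low. Relb was lower there than in the other gates by 0.61 on the log2 scale (log2 fold change -0.61 ± 0.17, adjusted p = 0.0138) and Nfkb2 by more (-0.68 ± 0.17, adjusted p = 0.0064), in 3 of 3 libraries each, where 7.87% of all genes were called lower. Low Relb was not particular to the MedRC gate (71.0 ± 14.4 CPM). The TBRC gate had a lower mean (62.4 ± 21.7 CPM), and its difference of -0.72 ± 0.24 did not pass (edgeR adjusted p = 0.086). The MedRC calls of Relb and Nfkb2 were each lost in 5 of 12 alternatives. Both were lost without the first 2-IC library (adjusted p = 0.45 and 0.37), with no replicate block (0.15 and 0.14) and with no filter on low counts. That of Relb was also lost without the 1-IC library (0.053), and that of Nfkb2 with 1 UMI for a gate. The MedRC gate also had the highest share of immediate early genes, a list that includes Nr4a1, also listed as a MedRC marker. With barcodes above 2% of these genes left out, which removed 357 of 472 MedRC barcodes, the differences were -0.37 (adjusted p = 0.42) and -0.62 (adjusted p = 0.23), and the part of this share in the result was not tested further. In the same cells Relb in the FDC gate was higher by 0.99 (adjusted p = 0.0014).

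Map3k14, the gene of NIK, was sparse, with 2 to 65 UMIs per sum. It was at 54.6, 35.8 and 27.5 CPM in the FDC gate and at 42.9, 105 and 77.2 CPM in the IFRC gate, with the lowest mean in the TBRC gate (27.4 ± 10.4 CPM). The FDC gate was not shown to differ from the others (0.07, interval -0.49 to 0.64, adjusted p = 0.902). NIK is known to be held down by degradation of the protein, which these counts do not see. The IFRC gate had the highest mean (75.0 ± 31.0 CPM), with a fitted difference of 0.81 ± 0.30 that did not pass (adjusted p = 0.239).

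Of the canonical arm, Nfkb1 differed more between libraries than between gates. In the second 2-IC library it was at 176, 162, 319.5, 156 and 169 CPM in the FDC, MRC, IFRC, TBRC and MedRC gates. The same gates of the first 2-IC library had 89.2, 95.9, 107, 80.3 and 73.9 CPM, and those of the 1-IC library 62.9, 57.1, 91.2, 39.2 and 36.9 CPM. The order of the 3 libraries was the same in all 5 gates. With the library in the fit, the FDC gate was not shown to differ from the others (0.07, interval -0.29 to 0.43, adjusted p = 0.87), and the IFRC gate, highest in each library, was higher by 0.64 ± 0.18 without passing (adjusted p = 0.0869).

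Rela, the gene of the main activating canonical subunit, was sparse, with 2 to 95 UMIs per sum. Means lay between 43.9 ± 30.4 CPM (IFRC) and 60.4 ± 10.9 CPM (MedRC). The FDC gate had 40.0, 62.6 and 31.4 CPM and the MedRC gate 54.4, 73.0 and 53.9 CPM. These gates overlapped, and neither was shown to differ from the rest (log2 fold changes -0.12 and 0.40, adjusted p = 0.811 and 0.217).

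**Figure D2:**
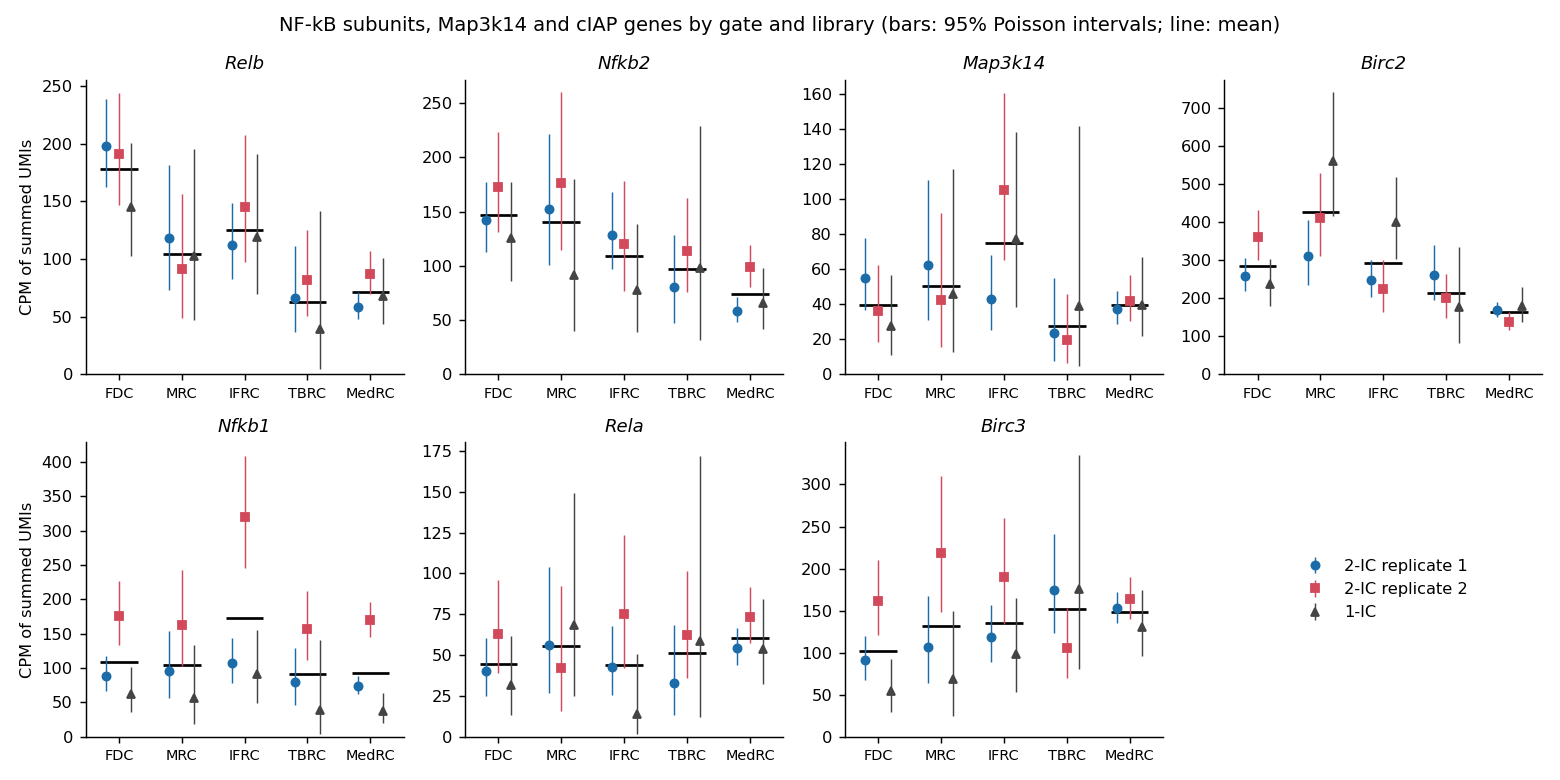
Levels of the NF-kB subunit genes, Map3k14, Birc2 and Birc3 (y axes, CPM of summed UMIs) in 5 gates (x axes), with a point for each library, a bar for its 95% Poisson interval and a line for the mean. Relb is highest in the FDC gate in every library, whereas Nfkb1 is highest in the second 2-IC library in every gate.

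The subunit RNA of the arms was also compared within each sum, as the share of Relb and Nfkb2 among the UMIs of the 4 subunit genes. This share needs no scaling between sums and does not measure the activity of either arm. The share was 72.5, 60.4 and 74.2% in the FDC gate, on 258, 202 and 93 UMIs. It was 64.0, 56.7 and 60.7% in the MRC gate and 61.6, 40.2 and 65.1% in the IFRC gate. The TBRC gate had 56.4, 47.2 and 58.3% and the MedRC gate 47.7, 43.3 and 59.5%. The FDC gate thus had the highest share of the 5 gates in 3 of 3 libraries. The lowest share was in the MedRC gate of the first 2-IC library, the IFRC gate of the second and the TBRC gate of the 1-IC library. The exact 95% intervals of FDC (66.6 to 77.8%) and MedRC (42.8 to 52.5%) did not overlap in the first 2-IC library, nor in the second 2-IC library (53.3 to 67.2% and 38.6 to 48.1%), and did in the 1-IC library (64.1 to 82.7% and 47.9 to 70.4%). Those of the FDC and MRC gates overlapped in 3 of 3 libraries. Because the share combines members that were already described, no test was made of it.

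**Figure D3:**
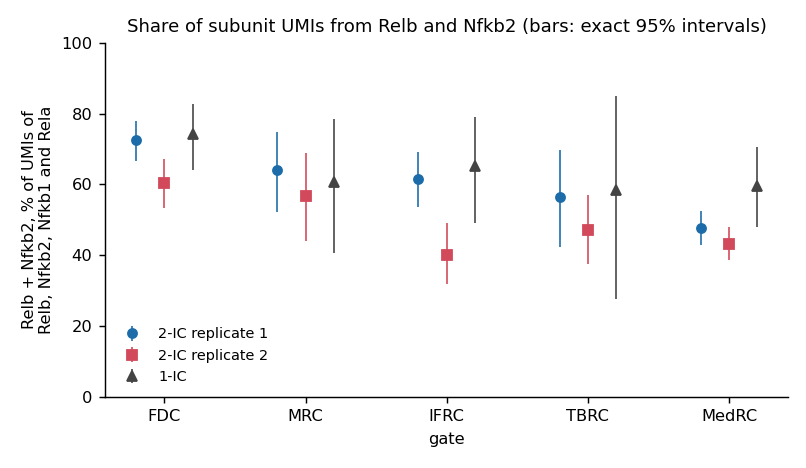
Share of Relb and Nfkb2 among the UMIs of Relb, Nfkb2, Nfkb1 and Rela (y axis, percent) by gate (x axis), with a point for each library and exact 95% binomial intervals for counting error. The mean falls from 69.0% in the FDC gate to 50.1% in the MedRC gate, and the second 2-IC library has the lowest share in every gate.

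Birc2 and Birc3 encode the ubiquitin ligases cIAP1 and cIAP2, which mark RIPK1 in canonical signalling and, with TRAF2 and TRAF3, keep NIK low. They are neighbours on chromosome 9 and related in sequence. Birc2 was highest in the MRC gate, at 310.4, 409 and 559.8 CPM, and lowest in the MedRC gate, at 169, 137 and 179 CPM. It was at 258, 361 and 236 CPM in the FDC gate, at 248, 225 and 400 CPM in the IFRC gate and at 259.8, 199 and 176 CPM in the TBRC gate. MedRC values lay below all FDC, MRC and IFRC values.

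In the MedRC gate Birc2 was lower by 0.79 on the log2 scale (log2 fold change -0.79 ± 0.20, adjusted p = 0.00731), in 3 of 3 libraries. That call was lost without the first 2-IC library (0.063), with immediate early genes limited to 2% (-0.90, adjusted p = 0.064) and with no replicate block (0.089). In the MRC gate Birc2 was higher by 0.72 ± 0.21 (adjusted p = 0.0473), where 3.38% of genes were called higher. This call was close to the threshold and was lost in 11 of 13 alternatives, among them without each library (adjusted p = 0.097, 0.13 and 0.30) and with DESeq2 (0.057).

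Birc3, an NF-kB target as well as a regulator, showed no such order. It was at 91.0, 161 and 55.0 CPM in the FDC gate and at 153, 164 and 130.4 CPM in the MedRC gate. The FDC gate was not shown to differ from the others (-0.38, interval -0.85 to 0.10, adjusted p = 0.31), nor the MedRC gate (0.33, -0.08 to 0.74, adjusted p = 0.32). Without the second 2-IC library Birc3 was called lower in the FDC gate (-0.69, adjusted p = 0.026) and higher in the MedRC gate (0.55, adjusted p = 0.032). The 1-IC library had the lowest value in the FDC, MRC, IFRC and MedRC gates and the highest in the TBRC gate, on 9 UMIs.

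Counted by gate, members called were 2 of 9 in the FDC gate (Relb and Nfkb2, both higher), 1 of 9 in the MRC gate (Birc2, higher), 3 of 9 in the MedRC gate (Relb, Nfkb2 and Birc2, all lower) and 1 of 9 between FDC and MRC (Relb). Of all 5182 genes tested, 1181, 269, 952 and 306 were called in these contrasts, in the same order and in either direction. In the IFRC gate edgeR called 0 of 9 and DESeq2 0, where edgeR called 1.76% of all genes. At an unadjusted edgeR p under 0.05 there were 2 of 9 (Nfkb1 and Map3k14), and 597 of all 5182 genes. In the TBRC gate edgeR called 0 of 9 and DESeq2 0, where edgeR called 5.92% of all genes. Again 2 of 9 had an unadjusted edgeR p under 0.05 (Relb and Map3k14, both lower), and 921 of all 5182 genes did. The median log2 fold change of the 9 members was 0.07 in the FDC gate and -0.06 in the MedRC gate, against 0.04 and -0.02 over all genes, and 5 of 9 were positive in the FDC gate and 3 of 9 in the MedRC gate.

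**Figure D4:**
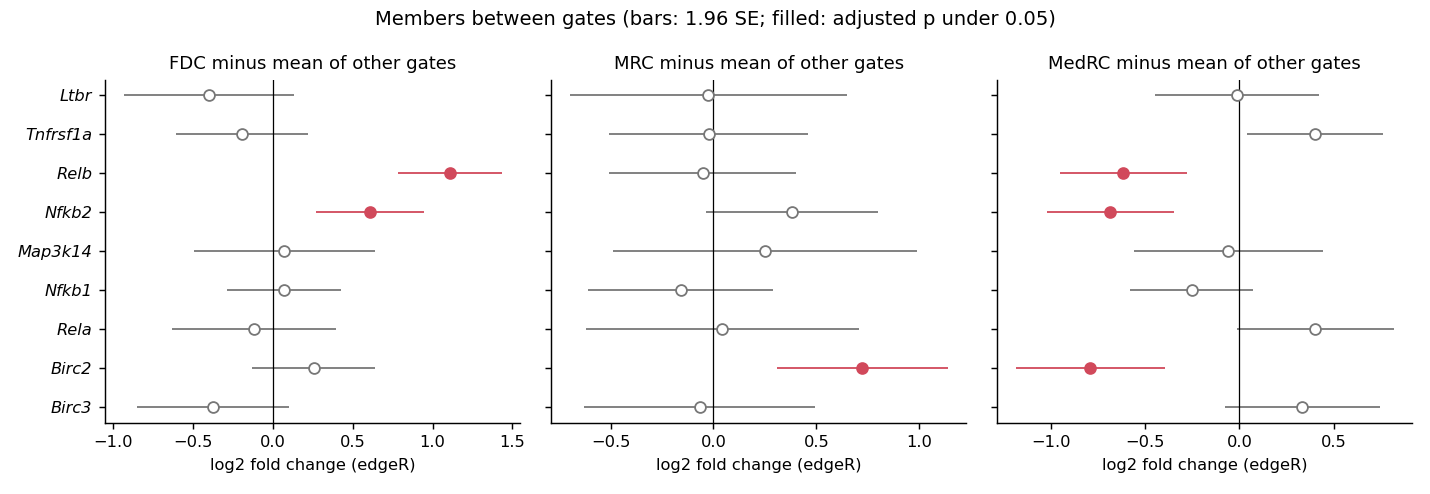
Fitted log2 fold changes (x axes) of the 9 tested members in the FDC, MRC and MedRC gates against the mean of the other gates, with bars of 1.96 SE and filled points for adjusted p under 0.05. Relb (1.11) and Nfkb2 (0.61) are higher in the FDC gate, Birc2 (0.72) in the MRC gate, and these 3 genes are lower in the MedRC gate.

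The FDC gate held 49 barcodes with Malat1, a nuclear RNA, under 1% of UMIs. Levels of members in these and in the other FDC-gate barcodes were set side by side without a test. Birc2 was at 102, 137 and 20.2 CPM in the barcodes under 1% and at 297, 408 and 288 CPM in the rest. Relb was at 148, 103 and 60.6 CPM against 211, 209 and 166 CPM, and the 2 sets did not overlap for either gene. The values under 1% rest on 11, 8 and 1 UMIs of Birc2 and 16, 6 and 3 of Relb. The 95% counting intervals of Relb overlapped in each library. Nfkb1 (55.4, 51.4 and 20.2 against 97.4, 202 and 73.2 CPM) and Tnfrsf1a (120, 17.1 and 101 against 129, 144 and 141 CPM) did not overlap either. How many of all genes separated in this way was not counted. Nfkb2 went the other way in 2 of 3 libraries, at 129, 239.9 and 182 CPM against 145, 159 and 112 CPM. Those barcodes were also shallower, with medians of 3885, 5890 and 3423 UMIs against 7249.5, 14219 and 8831.5, and held Cr2 at 1959, 2194 and 1859 CPM. With barcodes under 1% left out of all gates, Relb in the FDC gate was higher by 1.21 (adjusted p = 1.9e-05).

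The genes whose levels followed the members most closely were listed by Pearson's r of log2 CPM over the 15 sums, centred on each library, among 5181 genes. These sums share libraries and sequencing depth, and r is a description. For Relb they were Malat1 (0.96), Tspan15 (0.93) and Ehd1 (0.91), Malat1 having been at 90984 ± 23034 CPM in the FDC gate and 58639 ± 21612 CPM in the MedRC gate. For Nfkb2 they were Hipk2 (0.90), Ndrg1 (0.90) and Agps (0.88), and for Nfkb1 Mrpl20 (0.91), Bub3 (0.82) and Vmp1 (0.81). Those of Ltbr were Ckap4 (0.85), Ssr2 (0.85) and Cald1 (0.83), those of Tnfrsf1a Spty2d1 (0.88), Tor2a (0.84) and Rab5a (0.80), and those of Birc3 Man2a2 (0.89), Gabarap (0.88) and Nr3c1 (0.87). No member appeared among them. Between members, r was 0.61 for Relb with Nfkb2, 0.63 for Relb with Nfkb1 and -0.27 for Relb with Ltbr.

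Other genes of the pathway were taken from lists by role. Of the ligands, lymphotoxin alpha (Lta) had 0 UMIs in every gate, where a count of 3 would have been 1.72 to 58.7 CPM per sum. Ltb, the membrane-bound partner in lymphotoxin, was at 26.8 ± 16.1 CPM in the FDC gate and 2.42 ± 3.39 CPM in the MedRC gate, against 701 ± 111 CPM in B cell barcodes, and was too low to test. Tnfsf13b, the gene of the B cell survival factor BAFF, was highest in the TBRC gate (345 ± 108 CPM), where it was higher by 1.37 ± 0.22 (adjusted p = 0.0003), and was lower in the FDC gate (-0.77 ± 0.23, adjusted p = 0.017, a call lost in 5 of 13 alternatives). Tnfsf11 defined a gate and is not counted.

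Among 10 other receptors of the family, 3 were tested and 2 differed between gates, where 27.9% of all genes did. Fas, the death receptor, was lower in the MedRC gate (-0.91 ± 0.20, adjusted p = 0.0024) and higher in the MRC gate (0.87 ± 0.23, adjusted p = 0.028, a call lost in 9 of 13 alternatives), and Ngfr, the low-affinity nerve growth factor receptor, was lower in the FDC gate (-0.96 ± 0.24, adjusted p = 0.0052). Tnfrsf12a was the third and did not pass (adjusted p = 0.23). Tnfrsf9, an activation-induced receptor chosen after its values were seen and too low to test, had 36 UMIs in the FDC gate (28.8 ± 11.4 CPM) and 2 in all other gates together.

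Of 18 adaptors and ubiquitin enzymes, 10 were tested and 4 were called in the FDC gate, all higher, where 13.7% of all genes were called higher. Traf1, an adaptor that binds TRAF2 and the cIAPs and is itself induced by NF-kB, was at 116 to 169 CPM in the FDC gate and at 8.59 to 45.7 CPM in all other sums, with no overlap. It was also at 58.8 ± 7.69 CPM in B cell barcodes and at 117 ± 73.4 CPM in 26 myeloid barcodes, and Lyz2 and Cd52 were higher in the FDC gate too, whose part in this result was not tested. It was higher in the FDC gate by 2.68 ± 0.21 (adjusted p = 2.0e-09), a larger estimate than for any of the 9 tested members, and its call was kept in 12 of 12 alternatives that tested it. Otulin, which removes linear ubiquitin chains, was higher by 1.05 ± 0.22 (adjusted p = 0.0011), Tnfaip3, the gene of the brake A20, by 0.93 ± 0.17 (adjusted p = 0.00025), and Tnip1, which binds A20, by 0.70 ± 0.19 (adjusted p = 0.011, a call lost in 3 of 12 alternatives). The other 6 were Traf3, Ripk1, Cyld, Xiap, Rbck1 and Tab2, with adjusted p between 0.16 and 0.77 over the gates.

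The IKK genes Chuk, Ikbkb and Ikbkg had summed means of 42.0 to 71.1 CPM over the gates and were too low to test. Of 7 inhibitors and other subunits, 5 were tested and 3 differed between gates, where 27.9% of all genes did. Nfkbie, which encodes the inhibitor IkB epsilon, was higher in the FDC gate (0.89 ± 0.19, adjusted p = 0.001) and lower in the MedRC gate (-0.68 ± 0.19, adjusted p = 0.013, lost in 5 of 12 alternatives). Bcl3, a nuclear partner of p50 and p52, was lower in the MedRC gate (-1.19 ± 0.36, adjusted p = 0.021, a call lost in 5 of 12 alternatives), and Nfkbiz, a nuclear IkB protein, higher (0.89 ± 0.25, adjusted p = 0.016), which with immediate early genes limited to 2% became -0.26 (adjusted p = 0.75). Nfkbia, the gene of IkB alpha, was at 1428 ± 134 CPM in the FDC gate and 1653 ± 129 CPM in the MedRC gate and did not pass (adjusted p = 0.20).

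Of 14 targets of the canonical arm 13 were tested, and in the FDC gate 1 was called higher and 5 lower, where 9.13% of all genes were called lower. In the MedRC gate 7 were called higher and 1 lower, where 10.5% of all genes were called higher. Vcam1, an adhesion molecule, was the one higher in the FDC gate (0.75 ± 0.15, adjusted p = 0.00064) and lower in the MedRC gate (-0.72 ± 0.16, adjusted p = 0.0028, lost in 5 of 13 alternatives). Cxcl1, Ccl2, Ccl7, Ptgs2 and Gadd45b were lower in the FDC gate, Ccl7, a monocyte chemokine, with a log2 fold change of -3.17 ± 0.53 (adjusted p = 8.8e-05). These 5 and also Cxcl2 and Ier3 were higher in the MedRC gate, Cxcl1, a neutrophil chemokine, by 2.25 ± 0.36 (adjusted p = 9.6e-05). In the TBRC gate 3 were called higher too, Ccl7 by 3.14, Cxcl1 by 2.53 and Ccl2 by 2.28. There 197 of 5182 genes were called higher, and the calls of Cxcl1 and Ccl2 were each lost in 2 of 13 alternatives. In the MRC gate Cxcl1, Ccl7 and Gadd45b were called lower, where 94 of 5182 genes were. These MRC calls were lost in 3, 5 and 9 of 13 alternatives. The call of Ccl2 in the MedRC gate was lost in 5 of 13 alternatives, with a log2 fold change down to 0.017. Those of Ccl7, Gadd45b and Ier3 were each lost in 1 of 13, with values down to 0.18, 0.83 and 0.86. That of Cxcl2 was lost in 1 of 10 (down to 0.76), and that of Ptgs2 was kept in 6 of 13. The 10 immediate early genes were all higher in the MedRC gate and all lower in the FDC gate, and with these limited to 2% of UMIs Cxcl1 in the MedRC gate was at 1.06 without passing (adjusted p = 0.15) and Ptgs2 at -1.004 (adjusted p = 0.43). Median log2 fold changes of the list were -0.51 in the FDC gate and 1.00 in the MedRC gate, against 0.04 and -0.02 over all genes. These medians describe this list and not all targets of the arm. Traf1, also induced by NF-kB, was counted with the adaptors and was higher in the FDC gate. Birc3, a target counted with the members, was not shown to differ there.

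**Figure D5:**
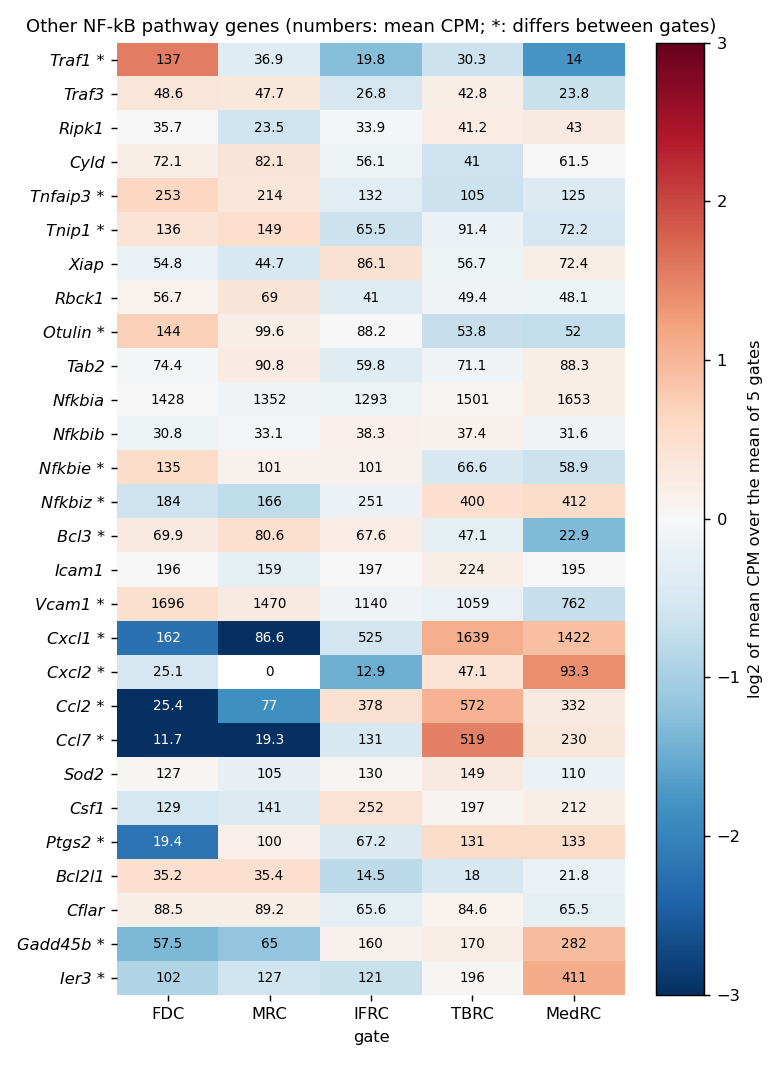
Mean CPM (numbers) of the tested adaptors, ubiquitin enzymes, inhibitors and canonical targets in 5 gates, coloured by the log2 of that mean over the mean of the gates, white where no UMI was counted and with the scale ending at -3 and 3. An asterisk marks genes that differed between gates, among them Traf1 (137 CPM in the FDC gate and 14.0 in the MedRC gate).

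Stromal genes known to depend on lymphotoxin did not share 1 direction. Of this list, Mfge8, Bst1, Enpp2, Ch25h, Ccl21a, Ccl19 and Cxcl12 were also on the marker lists of the cell types. Their differences between gates follow from that choice and are no result about lymphotoxin. All 9 tested of 10 differed between gates (27.9% of all genes), and in the FDC gate 3 were higher and 5 lower (13.7 and 9.13% of all genes). The higher ones were Cxcl13, which the sort selects on (2.65 ± 0.17, adjusted p = 6.4e-11), Mfge8, which helps clear dying cells (1.77 ± 0.12, adjusted p = 1.6e-10), and Bst1 (0.84 ± 0.16, adjusted p = 0.0005). These 3 were also called higher in the MRC gate (by 2.00, 1.16 and 1.49). None was shown to differ between the FDC and MRC gates (0.52, 0.48 and -0.52, edgeR adjusted p = 0.28, 0.11 and 0.20). Ccl21a and Ccl19, the chemokines of the T zone, were lower in the FDC gate and higher in the TBRC gate (2.94 ± 0.41, adjusted p = 8.5e-05, and 1.58 ± 0.26, adjusted p = 0.00053). Cxcl12, Enpp2 and Ch25h were the others that were lower in the FDC gate, and Il7, a T cell survival factor, was higher in the TBRC gate (2.45 ± 0.28, adjusted p = 4.8e-06). In the MRC gate 5 of the list were called higher and 2 lower, where 175 and 94 of 5182 genes were. The median of the list was -0.72 in the FDC gate and 1.16 in the MRC gate.

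Animals given 1 or 2 complexes could be set side by side but not tested, so genes with 50 CPM or more in either of a pair of libraries were compared by fold. Over all retained cells, 0 of 7 members differed 2-fold or more when the 1-IC library was set against the first 2-IC library, where 2.35% of genes did. Against the second it was 1 of 8 (Nfkb1, 61.3 and 176 CPM), with 12.3% of genes apart. Nfkb1 was also the 1 of 8 apart between the 2-IC libraries themselves (80.8 and 176 CPM), where 5.51% of genes were, and these libraries carry different tags in the labels. By less than 2-fold, Birc2 in retained cells was higher in the 1-IC library (277 CPM) than in the 2-IC libraries (214 and 206 CPM), and Birc3 was lower (103 against 154 and 183 CPM). How many of all genes lay to one side of both 2-IC libraries was not counted. In the FDC gate Birc2 went the other way (236 against 258 and 361 CPM), while Birc3 was again lower (55.0 against 91.0 and 161 CPM).

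Within the FDC gate, the 1-IC library was 2-fold apart from the first 2-IC library in 0 of 7 members (9.7% of genes) and from the second in 2 of 7 (Nfkb1 and Birc3, 30.6% of genes), and the 2-IC libraries were apart in 0 of 8 (22.1% of genes). Relb was at 145 CPM in the FDC gate of the 1-IC library and at 198 and 191 CPM in those of the 2-IC libraries. The exact 95% counting intervals of these ratios included no change (log2 ratio -0.45, -1.03 to 0.10, and -0.39, -1.02 to 0.21). The number of complexes and the depth of a library cannot be told apart with 1 library of the 1-IC group.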

How the data were processed

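Cells of 3 libraries were analysed from the UMI counts per gene and barcode that the authors deposited, made with Cell Ranger (5.0.0 in the file headers) on GRCm38 and not normalized. Samples were grouped by their titles, in which the 2-IC libraries differ by a tag (Biotin24h or Biotin7d) that was not used. Retained barcodes had at least 200 genes, at most 10% mitochondrial UMIs and no count of 13 contaminant genes, after the study's methods. A gate needed 2 UMIs of its gene, with Cr2 at 0 outside the FDC gate, Madcam1 at 0 outside the FDC and MRC gates, and Tnfsf11, Fmod and Inmt exclusive of one another among the other 3 gates. No doublet caller was run.

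Counts were summed per library and gate (at least 5 barcodes) and rows with the same symbol were added. The sums were fitted with edgeR 4.0.16 in R 4.3.3 (filterByExpr, TMM, quasi-likelihood test, 8 residual degrees of freedom), with the library as a block, since the sums of a library come from 1 cell suspension. Each gate was compared with the mean of the other 4, p-values were adjusted over all 5182 genes, and the procedure was tested on simulated data. The block takes out shifts of a whole library. The p-values rest on how far gate differences varied between these libraries, after edgeR drew the spread of each gene toward a trend over all 5182 genes. They thus use more than the 8 residual degrees of freedom of a single gene. Nothing says which mice entered which library. Intervals of levels and shares are exact Poisson or binomial (95%) and cover counting error only, and a count of 0 was taken to allow 3 counts.

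The members and lists were chosen with earlier results of these data known. Genes named are the 10 members, list genes that differed between gates or the 3 highest of the others, and the 3 genes most like each of 7 members, of which Tnfrsf1b was too low to be compared. The 6 adaptors and enzymes that were not called were named after their values were seen. Alternatives were 1 UMI for a gate, no block, DESeq2 1.42.0, its size factors, no filter on low counts or contaminant genes, Malat1 at 1% or more, thinning to 2000 UMIs and leaving out each library. After the data were seen, leaving out barcodes above 2% immediate early genes and barcodes shared by libraries was added. Promoters came from RefSeq (GRCm38.p6).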

Additional observations from a re-analysis of the deposited data

Results flagged for a closer look

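In 9 of 50 combinations of member and gate, both 2-IC libraries lay on one side of the mean of the other gates and the 1-IC library on the other. These differences were not tested, and how often the pattern arises over all genes was not counted. The count is thus not a result about the condition, and some of the values lay close to no difference. The values are log2 ratios for the first 2-IC, the second 2-IC and the 1-IC library, in this order. Birc2 was at 0.07, 0.57 and -0.48 in the FDC gate and at -0.01, -0.30 and 0.47 in the IFRC gate. Tnfrsf1b was at 0.13, 0.64 and -0.0101 in the MRC gate and at -0.31, -0.26 and 0.34 in the IFRC gate. Nfkb2 was at 0.57, 0.48 and -0.0017 in the MRC gate and at -0.58, -0.32 and 0.12 in the TBRC gate. Tnfrsf1a was at -0.15, -0.34 and 0.28, and Rela at -0.54, -0.02 and 0.48, in the TBRC gate. Nfkb1 was at -0.0026, -0.20 and 0.16 in the FDC gate. The TBRC sum of the 1-IC library held 7 barcodes, with 3 UMIs of Rela and 9 of Tnfrsf1a. Relb was not among these combinations in any gate.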

How the results depend on the processing

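The limits are few barcodes per sum and 1 library of the 1-IC group. Relb in the FDC gate kept its call in 12 of 12 alternatives (log2 fold change 0.55 to 1.21) and, with thinned counts, was too low to test. Counts of members called in any gate, FDC, MRC, IFRC, TBRC, MedRC and FDC against MRC were 3, 2, 1, 0, 0, 3 and 1, and of all genes 1446, 1181, 269, 91, 307, 952 and 306. With no replicate block, members called fell to 1 in any gate, 1 in FDC and 0 in MRC, MedRC and FDC against MRC, and genes to 787, 671, 110, 14, 102, 414 and 118. With thinned counts members fell to 1 in any gate and 0 in FDC, MRC and FDC against MRC, and genes to 503, 396, 80, 60, 107, 368 and 126. With immediate early genes limited to 2%, an alternative that like the one without shared barcodes was chosen after seeing the data, members fell to 1 in any gate, 1 in FDC and 0 in MRC, MedRC and FDC against MRC, and genes to 816, 784, 66, 37, 83, 343 and 148. In the MedRC gate, Nfkbiz (-0.26) and Ptgs2 (-1.004) then changed sign. The MRC sum of the second 2-IC library and the TBRC sum of the 1-IC library, with 4 and 2 barcodes, did not enter this fit. With contaminant genes allowed, 6 members differed in any gate (Ltbr, Tnfrsf1a and Tnfrsf1b besides Relb, Nfkb2 and Birc2) and 2 in MRC. Genes called were 2349 in any gate, 1989 in FDC, 515 in MRC and 842 in FDC against MRC. The FDC gate of that setting could hold B cells. With no filter on low counts, members fell to 1 in FDC and 0 in MRC and FDC against MRC, and genes rose to 2261 in any gate, 173 in IFRC and 1492 in MedRC. With Malat1 at 1% or more, 1 member in FDC and 0 in MRC were called, and 178 genes in FDC against MRC. With DESeq2, or without shared barcodes, 0 members were called in MRC and in FDC against MRC, and with 1 UMI for a gate 0 in MRC. Leaving out 1 library gave 2 to 3 members in any gate, 1 to 3 in FDC, 0 in MRC, 0 to 4 in MedRC and 0 in FDC against MRC. Genes then ranged from 740 to 1426 in any gate, 550 to 1223 in FDC, 92 to 238 in MRC, 17 to 125 in IFRC, 117 to 280 in TBRC, 402 to 909 in MedRC and 98 to 347 in FDC against MRC, lowest without the first 2-IC library except in IFRC, where it was without the 1-IC library. Where fewer barcodes or counts entered a fit, that was part of the setting, and other causes were not tested. Mean levels of members moved by more than 1 SD in 14 of 50 combinations of member and gate with thinned counts, in 8 with contaminant genes allowed, in 8 with immediate early genes limited, in 2 with 1 UMI for a gate, in 1 with Malat1 at 1% or more and in 0 without shared barcodes.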
